A study of Arabidopsis thaliana with 12 samples.

Results

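The 4 genes described here encode small subunits and an antenna protein of the photosystems of Arabidopsis thaliana: PSAN (AT5G64040, probe 85), PSBY (AT1G67740, probe 2030), PSBW (AT2G30570, probe 3529) and LHCB1.5 (AT2G34420, probe 2665, annotated as LHB1B2). They were chosen by function from the 691 genes that had an array probe annotated to a single gene, and each had 1 such probe. RNA was measured in 12 samples, 6 of the wild type (WT) and 6 of the mutant atc6, both of the ecotype Columbia 0 and both raised on MS medium, a mineral medium for plant culture. Per the labels, the mutant has no cytochrome c6 protein. The labels name no tissue, age or light regime, no allele, and no plant, culture or array behind a replicate number. A list of root marker genes had 0 of 9 members on a probe of its own, so the tissue could not be checked.

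Photosystem II takes electrons from water and passes them through the cytochrome b6f complex to plastocyanin, a copper protein of the thylakoid lumen, which carries them to photosystem I. Cytochrome c6 is a haem protein that takes the place of plastocyanin in many algae and cyanobacteria, and plants hold a diverged form of it in the thylakoid lumen. PSAN encodes a lumenal subunit of photosystem I that takes part in the docking of plastocyanin. PSBY and PSBW encode small membrane-spanning subunits of photosystem II, and LHCB1.5 encodes a chlorophyll-binding protein of its light-harvesting antenna. All 4 are nuclear genes.

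The table holds linear intensities in a unit that is not given in the sources used here. Sample medians lay between 0.323 and 0.627, except in atc6 replicates 1 and 2, where they were 4.46 and 4.52. These 2 samples also ordered the probes differently. Their rank correlations with the other samples lay between 0.713 and 0.764, against 0.787 to 0.943 between the remaining samples of different doublets. Replicates 1 and 2, 3 and 4, and 5 and 6 of each genotype were close repeats (rank correlations of 0.938 to 0.983) and were averaged as doublets, so tests compare 3 against 3 values. Log2 differences are also given without atc6 replicates 1 and 2. Since the scale differs between samples, a level is given as deposited, as a multiple of its own sample's median, or as its percentile among the 3439 probes of that sample. A percentile is untouched by any rescaling of a sample.

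In the plot of intensities over the sample median, PSAN, PSBY and LHCB1.5 were highest in atc6 replicates 5 and 6. PSAN, PSBW and LHCB1.5 were lowest in atc6 replicates 1 and 2. With atc6 replicates 1 and 2 set aside, separation from WT on this measure was not particular to PSBY. The other genes also lay above every WT sample in atc6 replicates 3 to 6, PSAN only just (5.43 against 5.41). The divisors differed, with medians of 0.323 in atc6 replicates 5 and 6 and 0.485 to 0.627 in WT. The share of all probes that separated in this way was not counted, so nothing about these genes is read from it. For PSBW, atc6 replicates 3 to 6 lay at 83.5 to 121 times the median, against 39.0 to 66.1 in WT.

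**Figure D1:**
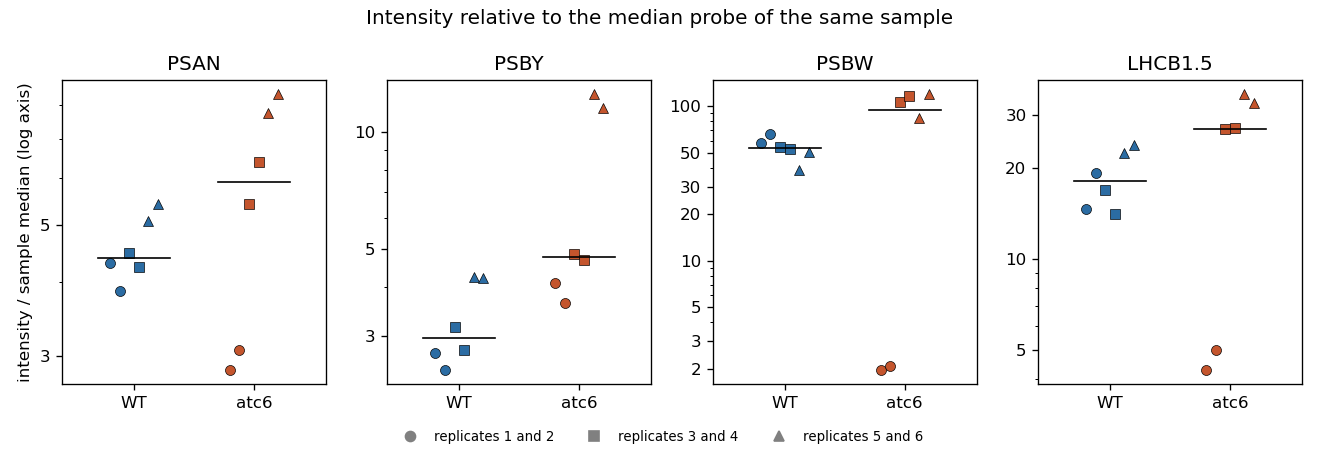
Intensity of each gene divided by the median probe of the same sample (log axis), for the 6 samples of each genotype, with a line at the group's median and symbols by doublet. PSBW lay at 1.95 and 2.07 times the median in atc6 replicates 1 and 2 and at 39.0 or more in all other samples.

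PSBY was the only gene of the set whose deposited intensities did not overlap between the genotypes. Its deposited intensity was 1.70, 1.53, 1.53, 1.35, 2.23 and 2.19 in WT replicates 1 to 6. In atc6 replicates 1 to 6 it was 18.2, 16.4, 2.43, 2.34, 4.05 and 3.73, with the first 2 on the higher scale. Every mutant value was above every WT value, those of atc6 replicates 3 to 6 included. The same was true of 1.62% of 3329 probes, and of 1.77% when atc6 replicates 1 and 2 were left out.

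The separation also held for the rank of PSBY within its sample. The probe stood at percentiles 88.4, 85.7, 87.7, 85.0, 93.2 and 92.5 in WT and at 97.5, 95.7, 94.5, 94.2, 97.5 and 97.1 in atc6. The lowest mutant percentile, in replicate 4, was thus just above the highest WT percentile, in replicate 5. In terms of place from the top, PSBY was between 236th and 517th in WT and between 85th and 199th in the mutant. Over all 3329 probes above 0 in at least 1 sample, 2.49% were likewise higher in every mutant sample by percentile. Measured against the sample median instead, the genotypes overlapped: WT lay between 2.45 and 4.25 times the median, atc6 replicates 3 to 6 between 4.70 and 12.5, and atc6 replicates 1 and 2 at 4.09 and 3.63.

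**Figure D2:**
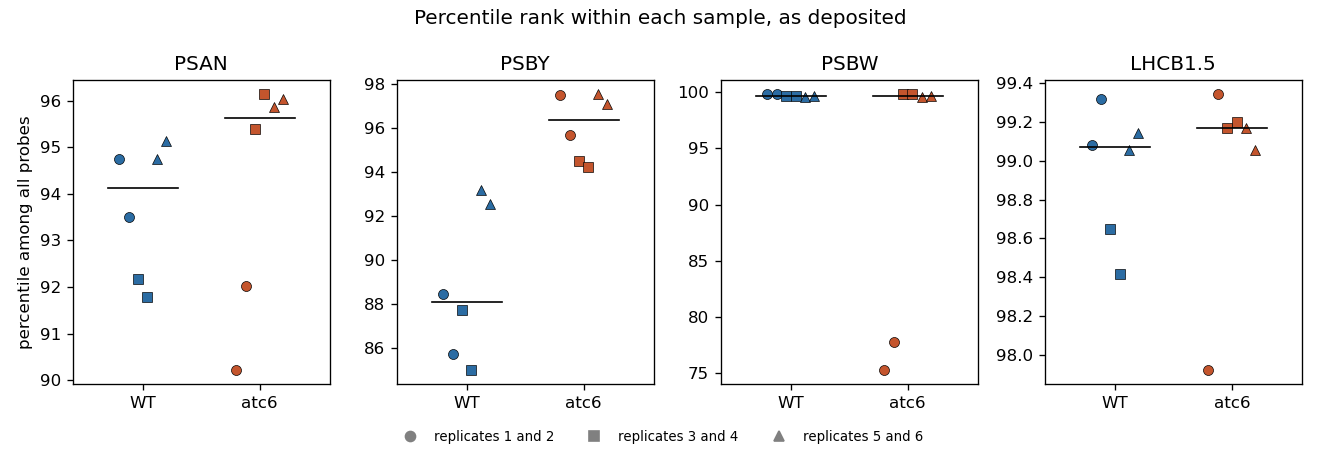
Percentile of each gene among all probes of its sample, from the deposited values, with a line at the group's median and symbols by doublet; the vertical axes differ between genes. PSBY is at 94.2 or above in atc6 and at 93.2 or below in WT, while PSBW leaves the top percentile only in atc6 replicates 1 and 2, at 75.2 and 77.7.

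Averaged over doublets, PSBY stood at percentile 88.8 ± 3.5 in WT and 96.1 ± 1.5 in atc6 (SD, n = 3 doublets each). The difference of 7.32 points gave p = 0.1 by exact permutation (two-sided), the smallest p that 3 against 3 values allow, and an adjusted p of 0.91 over all probes. The difference was 7.08 points when atc6 replicates 1 and 2 were left out. Doublets with the same number differed by 9.48, 8.01 and 4.48 points for replicates 1 and 2, 3 and 4, and 5 and 6, all in the same direction. By percentile, 5.65% of all probes had mutant doublets wholly above the WT doublets. WT replicates 5 and 6 were the WT samples nearest to the mutant.

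After quantile normalization, which gives all samples the same distribution, the log2 level of PSBY was 1.87 ± 0.23 in WT and 2.57 ± 0.26 in atc6 (SD, n = 3). The genotypes differed by 0.69 ± 0.24 (SE; 95% interval 0.13 to 1.26), a ratio of 1.62 on the scale of value plus pseudocount. It did not pass limma's test over all 3329 probes (adjusted p = 0.845). No probe passed that test (0%), and 5.02% had an unadjusted p under 0.05, PSBY among them at place 70 by p. On the same normalized log2 scale the repeats of PSBY within a doublet differed by up to 0.37, and repeats do not measure the spread between plants. Without atc6 replicates 1 and 2 it was 0.98 ± 0.31 (adjusted p = 0.691 in limma).

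PSBW was among the brightest probes in 10 of the 12 samples. Its deposited intensity was 36.1, 41.1, 26.3, 25.7, 20.4 and 26.4 in WT replicates 1 to 6. In atc6 it was 8.71 and 9.34 in replicates 1 and 2, and 53.2, 58.0, 27.0 and 39.0 in replicates 3 to 6. The mutant samples thus lay on both sides of WT, and the 2 samples with the highest medians had the lowest PSBW values.

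The place of PSBW within the sample showed the same split. It was between 5th and 16th from the top in WT, between 6th and 14th in atc6 replicates 3 to 6, and 852nd and 767th in atc6 replicates 1 and 2. Other bright probes also stood lower in these 2 samples: of the 20 brightest probes of WT, 5 lay on average under percentile 90 there, and the median of the 20 was 97.2. PSBW, the 9th brightest in WT, averaged percentile 76.5, and 1 of the 20 was lower, at 76.0. In the other 10 samples none of the 20 was below percentile 98.3. These include the 6 WT samples by which the 20 were picked, so high places there follow largely from the choice. The part of the sample scale and of the differing probe order in the low PSBW values was not tested.

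**Figure D3:**
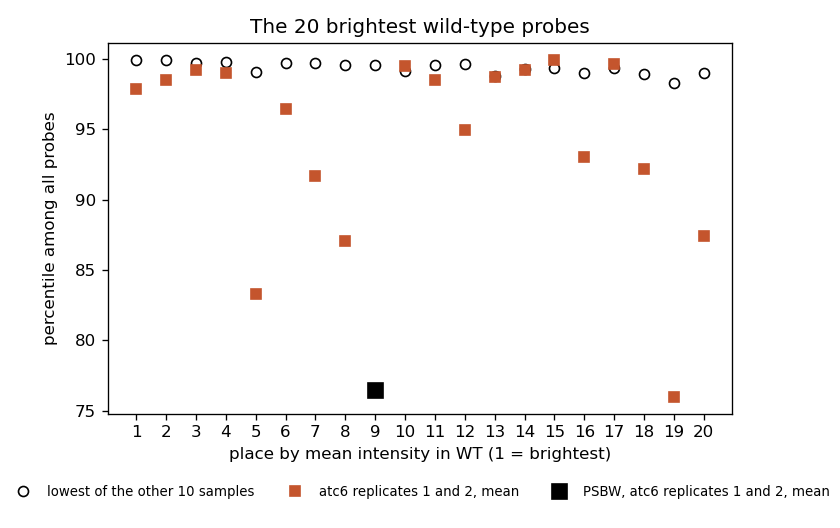
Percentile among all probes of the 20 probes brightest in WT, ordered by their mean WT intensity, as the mean of atc6 replicates 1 and 2 (squares, PSBW in black) and as the lowest of the other 10 samples (open circles). PSBW at 76.5 is one of 5 probes under percentile 90 in atc6 replicates 1 and 2.

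The normalized log2 level of PSBW was 5.01 ± 0.55 in WT and 3.83 ± 2.19 in atc6 (SD, n = 3), with mutant doublets at 1.35, 5.49 and 4.66. The difference of -1.18 ± 0.95 (SE) had a 95% interval of -3.39 to 1.03 and did not pass (adjusted p = 0.854 in limma). Without atc6 replicates 1 and 2 it was 0.07 ± 0.41 (adjusted p = 0.992 in limma). By percentile the difference was -7.74 points with all samples (p = 0.5, two-sided exact permutation test) and 0.0097 points without these replicates.

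PSAN, the subunit of photosystem I, had deposited intensities of 2.70, 2.40, 2.17, 2.07, 2.66 and 2.81 in WT and of 12.6, 13.9, 2.71, 3.19, 2.51 and 2.70 in atc6. As deposited, atc6 replicates 3 to 6 overlapped with WT, but sample medians differed, at 0.323 in atc6 replicates 5 and 6 and 0.485 to 0.627 in WT. Over the sample median, atc6 replicates 3 to 6 lay at 5.43 to 8.34, just above WT at 3.85 to 5.41. In atc6 replicates 1 and 2 the multiples were 2.83 and 3.07. By percentile, WT lay between 91.8 and 95.1 and atc6 replicates 3 to 6 between 95.4 and 96.1, while atc6 replicates 1 and 2 were at 90.2 and 92.0. The mutant doublets therefore lay on both sides of the WT doublets.

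The mean percentile of PSAN was 93.7 ± 1.5 in WT and 94.3 ± 2.7 in atc6 (SD, n = 3), a difference of 0.60 points (p = 0.7, two-sided exact permutation test) that was 2.18 points when atc6 replicates 1 and 2 were left out. On the normalized log2 scale atc6 differed from WT by 0.10 ± 0.24 (SE; 95% interval -0.46 to 0.65), with an adjusted p of 0.939 in limma. Without atc6 replicates 1 and 2 it was 0.39 (adjusted p = 0.839 in limma). Same-numbered doublets differed by -0.27, 0.42 and 0.14 on the log2 scale, so the sign depended on the doublet.

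LHCB1.5, the antenna gene, had deposited intensities of 9.20, 11.99, 8.23, 6.91, 11.8 and 12.4 in WT and of 19.1, 22.6, 13.5, 13.5, 11.4 and 10.6 in atc6. As deposited, the genotypes overlapped, with atc6 replicates 5 and 6 inside the WT range. Over the sample median, atc6 replicates 3 to 6 lay at 27.1 to 35.3, above WT at 14.1 to 23.9. In atc6 replicates 1 and 2 the multiples were 4.29 and 5.01, below WT. LHCB1.5 stayed near the top of every sample by percentile. WT samples lay between 98.4 and 99.3 and atc6 samples between 97.9 and 99.3, the lowest in atc6 replicate 1. Genes of the Lhcb1 group have closely similar coding sequences, and whether the probe tells them apart was not tested.

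The mean percentile of LHCB1.5 was 98.9 ± 0.4 in WT and 99.0 ± 0.3 in atc6 (SD, n = 3), a difference of 0.034 points (p = 0.8, two-sided exact permutation test) that was 0.21 points when atc6 replicates 1 and 2 were left out. On the normalized log2 scale the genotypes differed by 0.07 ± 0.24 (SE; 95% interval -0.49 to 0.62), with an adjusted p of 0.952 in limma. It turned to -0.17 with samples scaled to a common median and was 0.21 without atc6 replicates 1 and 2. The intervals of PSAN and LHCB1.5 cover changes in either direction, so the sign of either difference was not settled with these arrays. Their bounds are not limits of detection.

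Over the 4 genes, 3 log2 differences were positive and that of PSBW was negative, with a median of 0.08, against a median of 0.04 over all 3329 probes. Non-overlapping normalized doublets were found for 1 of the 4 genes, PSBY, and for 11.2% of all probes. In total RNA, a lower level in each cell and fewer cells expressing the gene cannot be told apart.

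**Figure D4:**
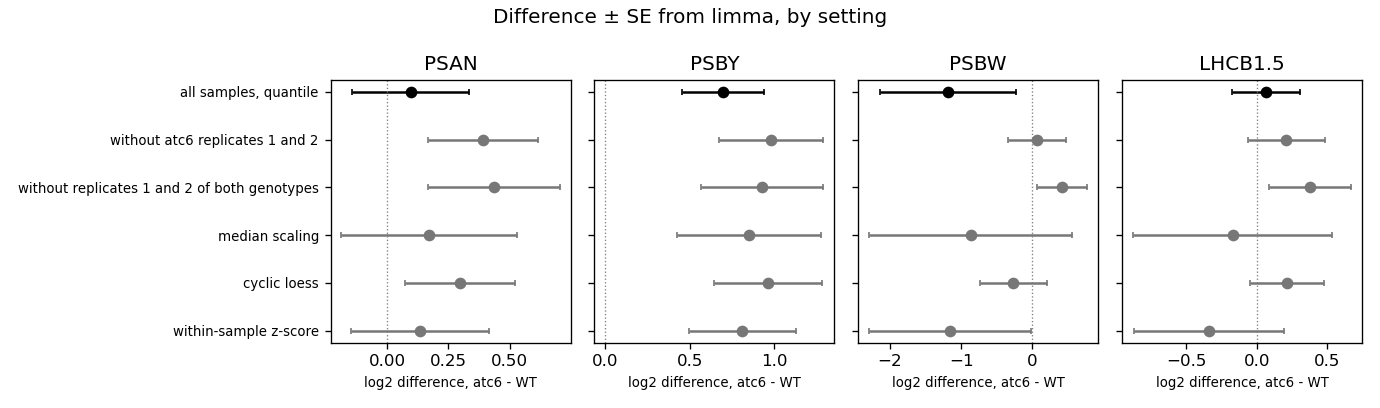
Log2 difference between atc6 and WT for each gene with its SE from limma, for all samples after quantile normalization (black) and for 5 alternatives (grey); the horizontal axes differ between genes. PSBY lies between 0.69 and 0.98 in all 6, while PSBW goes from -1.18 to 0.07 without atc6 replicates 1 and 2.

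The ratio of 2 genes within a sample is free of a factor common to all its probes, and the 6 ratios among the 4 genes were compared. It is not free of a narrower range of intensities. In atc6 replicates 1 and 2 the maxima were 30.1 and 31.4 at medians of 4.46 and 4.52. In the other samples maxima were 62.0 to 100 at medians of 0.323 to 0.627. The part of this in the ratios was not tested. The log2 ratio of PSAN over PSBY was 0.51 ± 0.18 in WT and -0.22 ± 0.46 in atc6 (SD, n = 3), a difference of -0.73 (p = 0.1, two-sided exact permutation). Its mutant doublets lay wholly below the WT doublets, and this was the only one of the 6 ratios without overlap. Over all pairs of probes above 0 in every sample, 10.3% had non-overlapping doublets. Without atc6 replicates 1 and 2 the difference was -0.65, and 21.1% of all pairs had non-overlapping doublets. Single samples did overlap: the ratio in atc6 replicate 4, at 0.44, was above those of WT replicates 5 and 6, at 0.25 and 0.36.

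The ratio of PSBY over LHCB1.5 was -2.52 ± 0.17 in WT and -1.42 ± 1.12 in atc6 on the log2 scale (SD, n = 3), a difference of 1.09 that was 0.51 without atc6 replicates 1 and 2. In these replicates ratios with PSBW were shifted, as were PSBY and PSAN over LHCB1.5. PSBY over LHCB1.5 was -0.07 and -0.46 there, against -2.97 to -1.50 in the other samples. PSAN over LHCB1.5 was -0.60 and -0.71, against -2.32 to -1.74. PSAN over PSBY, at -0.53 and -0.24, lay inside the range of atc6 replicates 3 to 6 (-0.69 to 0.44). PSBW over LHCB1.5 differed by -0.74 with all samples and by 0.26 without atc6 replicates 1 and 2. PSAN over LHCB1.5 differed by 0.36 and by -0.13 respectively.

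Genes whose normalized log2 levels ran most like those of each member were sought among 662 others with a probe of their own. The measure was Pearson's r over the 12 samples, which hold 6 doublets of repeats. Genotype means were left in, so r includes any difference between the genotypes. PSBY was most like PRK (AT1G32060, r = 0.93), the gene of phosphoribulokinase in the Calvin-Benson cycle, and AT5G38750 (r = 0.91). Without atc6 replicates 1 and 2 these were 0.95 and 0.95. PSBW was most like AT3G26630 and AT5G06930 (r = 0.99 each), and 35 of the 662 genes were above 0.9. Without the 2 low samples, these 2 values were 0.84 and 0.82. PSAN was most like AT1G67800 (r = 0.83) and SRX (AT1G31170, r = 0.81), which encodes sulfiredoxin. These were 0.70 and 0.67 without atc6 replicates 1 and 2. For LHCB1.5 the highest values were 0.54 for AT3G59980 and AT5G48130, and 0.67 and 0.66 without these replicates. Each r over the 12 samples is 1 of the 2 highest of 662 values over 6 doublets and is given as a description.

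Of 59 nuclear genes listed for the photosystems, their antennae, electron transport and ATP synthase, these 4 were the only ones with a probe of their own. A further 5 were on probes annotated to several genes, and 50 were not listed and are not analysed here. Both plastocyanin genes and the gene of cytochrome c6 were outside the 4, so the genotype was not checked on its own transcript. Of 18 listed assembly factors of photosystems and cytochrome complexes, 4 were measured and 0 passed limma's test over all probes. All 4 differences were positive, as were 53.9% of those over all probes, but CCB3, at 0.02, was listed at 0 in every WT sample. ATAB2, which acts in translation of photosystem core proteins, differed by 0.38 ± 0.37 (SE), LPA19, an assembly factor of photosystem II, by 0.21 ± 0.25, and PSB27, another such factor, by 0.41 ± 0.72. Of 20 listed genes of the NDH complex, which feeds electrons from ferredoxin back to plastoquinone, 2 were measured and 0 passed. NDHS, the subunit that binds ferredoxin, differed by -0.61 ± 0.42 and NDHN by -0.02 ± 0.36.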

How the data were processed

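RNA of 12 samples was measured on an array. Intensities were deposited by the authors as a linear table of 3439 probes. That they are linear was read from the values, and for unit, scanner, background correction and scaling nothing is stated in the sources at hand. Genes were named from the platform annotation, which can be old (692 probes with a single gene, 870 with several, 1877 not listed), and 690 of the first were found by ID in the gene table of TAIR10.1.

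Probes without a positive value (110) were dropped. The other 3329 were quantile-normalized and log2-transformed with a pseudocount of 0.267, the 10th percentile of positive values, which understates changes of dim probes. Doublets were averaged and fitted with limma 3.58.1 (R 4.3.3; lmFit, eBayes) without a block, with Benjamini-Hochberg adjustment over all probes. Percentiles use the deposited values. Their tests had been planned with adjustment over the 4 genes and were adjusted over all probes instead. The fit was tested on simulated data.

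Named genes are the 4 members, the 2 most similar genes of each, and the 2 with the smallest p in each neighbouring list; CCB3 and PSB27 were named after their values were seen. Members and lists were chosen with earlier results of these data known. Nothing says that replicates are separate plants, so a p-value reflects the spread of these samples alone, and that spread may be technical. The number of arrays limits the precision. Alternatives covered normalization, pseudocount, filters, replicate unit, blocks and left-out samples. The ratios between members, and single samples without atc6 replicates 1 and 2, were added after the data were seen.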

Additional observations from a re-analysis of the deposited data

Results flagged for a closer look

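The percentile of LHCB1.5 in atc6 replicate 1, 97.9, lay far from the other 5 mutant samples: its gap to the nearest of them was 0.796 of the group's whole range, above the critical value of Dixon's test for 6 samples. On the normalized log2 scale the same sample stood apart, at 2.98 against 3.69 to 4.03, with a gap of 0.677 of the range. Both flagged measures rest on the order of probes within a sample. As deposited, LHCB1.5 was 19.1 in atc6 replicate 1 and 22.6 in its repeat, atc6 replicate 2. The normalized log2 levels of these repeats were 2.98 and 4.03. The gap was tested in 16 groups (4 genes, 2 genotypes and 2 measures), and chance flags about 1 in 20 groups of independent samples. The 6 samples are 3 doublets of close repeats, so that rate does not strictly apply here, and both flagged gaps concern the same gene and sample. The low PSBW values were not singled out by this test, since both repeats of the doublet were low together.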

How the results depend on the processing

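No difference of the 4 genes passed limma's test under any of the 32 alternatives that average or otherwise account for doublets. The differences of PSBY (0.55 to 1.58) and PSAN (0.0058 to 0.89) were positive under all 35 run. Both upper ends came from values left as deposited, where the median difference of all probes was 0.66. With normalization the highest were 0.98 for PSBY and 0.43 for PSAN. PSBY passed where repeats were entered as independent samples: adjusted p = 0.0219 in limma for all 12 (0.69; by percentile 7.32 points, adjusted p = 0.0417 by exact permutation), 0.0307 with the sample number as replicate block (0.69), and 0.0276 without atc6 replicates 1 and 2 (0.98). The number of probes changed, 0 in limma with 167 at an unadjusted p under 0.05, then became 99, 55 and 175. It was 1 at the lowest pseudocount (1st percentile), 1 with doublets as a random block, 1 with an intensity trend and robust prior, 1 without WT replicates 3 and 4, 2 without atc6 replicates 3 and 4, and 0 to 1 with single samples left out (1 without WT replicate 3).

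A replicate block on the doublets gave a count of 0, and PSBY had adjusted p = 0.819 in limma; the block changed no call. Same-numbered doublets of WT and atc6 deviated together at r = 0.068, 0.14 and 0.24. The highest r with a differently numbered doublet was 0.064, -0.018 and -0.050. For same-numbered samples r was 0.11 to 0.30, and the highest with another number was 0.037 to 0.12. The same-numbered r was the higher each time, and no label explains the numbers.

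Signs changed as follows, and the cause was not tested. PSBW was at 0.066 without atc6 replicates 1 and 2 (doublets or samples), at 0.42 without replicates 1 and 2 of both genotypes, and at 0.0097 percentile points without atc6 replicates 1 and 2. LHCB1.5 was at -0.17 with median scaling, -0.34 with z-scores, -0.066 with odd-numbered samples and -0.097 without WT replicates 3 and 4, and ranged from -0.13 to 0.27 with single samples left out. Its percentile difference ranged from -0.20 to 0.27 with single samples left out and was -0.17 without WT replicates 3 and 4, -0.070 without atc6 replicates 3 and 4 and -0.034 without atc6 replicates 5 and 6. That of PSAN was -0.26, -0.15 and -0.24 without the same doublets. Without atc6 replicates 1 and 2, the log2 ratios turned to -0.40 for PSAN over PSBW, -0.13 for PSAN over LHCB1.5 and 0.26 for PSBW over LHCB1.5. Without normalization the median difference of all probes was 0.66 and 91% of differences were positive, against 53.9% after quantile normalization; relative to that shift PSBY was at 0.92. Each gene had 1 probe, so averaging probes of a gene was not run.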
